A study of Mus musculus with 6 samples.

Results

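The growth factor genes of the FGF and PDGF families, the receptor tyrosine kinases that read them and the genes of the ERK cascade and its feedback form a set of 47 genes, named by symbol, and all 47 were among the 20325 gene symbols measured. The set holds 8 ligands, 11 receptors, 9 adaptors and core kinases, 10 feedback inhibitors and 9 early response or ERK-dependent transcription genes. Messenger RNA was sequenced in 6 libraries from 2 mouse pre-iPSC lines, pre3 and pre2-2, which are partly reprogrammed cells derived from OG2 transgenic fibroblasts. OG2 mice carry a GFP reporter driven by Pou5f1 regulatory sequence. Each line gave 1 library transfected with siRNA against Tet1 (siTet1), 1 with a control siRNA and 1 left untransfected, so each treatment had 2 libraries, 1 per line. Tet1 encodes a dioxygenase that oxidises 5-methylcytosine. All 6 libraries came from passage 10 cells of one mixed background, labelled as 129SVJ, C57B6 and CBA, grown with LIF and 50 µg/ml vitamin C, an agent that every control therefore received too. The label for the cell type reads embryonic fibroblasts, whereas the title of the series names pre-iPSCs. The labels put RNA extraction 48 h after transfection, with 32 or 36 h of vitamin C depending on the field. Nothing in the labels says that the libraries of a line came from separate cultures. The spread between them may thus be technical, and each line is a single line. With 1 library per line and treatment, p-values rest on how far treatment differences disagreed between the lines, with spread shared across genes. They do not measure a spread between replicates.

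FGF and PDGF ligands bind receptor tyrosine kinases at the cell surface. The docking protein FRS2 and the adaptor GRB2 then recruit SOS, which loads RAS with GTP, and RAS starts the RAF, MEK and ERK kinase cascade. Active ERK switches on early response transcription factors such as FOS and EGR1. It also switches on its own brakes, namely the Sprouty and Spred proteins and the dual specificity phosphatases (DUSPs) that strip phosphate from ERK and related kinases. In mouse pluripotent cells, autocrine FGF4 acting through ERK is known to push cells towards differentiation, and blocking MEK is a standard step in taking pre-iPSCs to the ground state. Fibroblasts instead depend on PDGF receptors for growth.

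The libraries held 1868640 to 2582803 expected counts, and 3 counts corresponded to 1.16 to 1.61 CPM, a count scaled by library size. Tet1 itself, which checks the labels, had 158, 249 and 204 CPM in the siTet1, control siRNA and untransfected libraries of pre3, and 153, 245 and 249 CPM in those of pre2-2. It was lower with siTet1 than with control siRNA by a log2 fold change of -0.67 (SE 0.13, adjusted p = 0.00432, edgeR). The labelled cell type was checked against marker lists. Summed over 11 fibroblast markers, pre3 libraries had 833 to 1161 CPM and pre2-2 libraries 1618 to 3904 CPM. Of 13 pluripotent markers 8 were tested, of which 3 were higher (Pou5f1, Dppa5a and Tdgf1) and 4 lower (Utf1, Sall4, Epcam and Cdh1) in pre3, with a median log2 fold change of -0.54. Utf1, with 5.82, 2.65 and 3.57 CPM in the siTet1, control siRNA and untransfected libraries of pre3, passed the filter on low counts, given below, through pre2-2. Pou5f1 alone had 5767 to 6589 CPM in pre3 and 1037 to 1203 CPM in pre2-2. Against control siRNA, 3 of that list were higher with siTet1, namely Dppa5a (log2 fold change 1.63, adjusted p = 1.94e-05), Cdh1 (1.04, adjusted p = 0.000134) and Tdgf1 (0.72, adjusted p = 0.000546). Nanog, a defining gene of naive pluripotent cells, had at most 3.53 CPM in any library. All 4 trophoblast genes measured together summed to at most 3.02 CPM. Bulk libraries cannot tell fewer cells of a type apart from less RNA per cell.

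The level of each gene was set first against the others of its role, in TPM, a scale of relative transcript abundance that corrects for transcript length. Among ligands, Pdgfa, which encodes the A chain of PDGF, averaged 83.8 TPM over the 6 libraries, and Fgf4, the autocrine FGF of early embryos and pluripotent cells, averaged 65.3 TPM. Fgf5, a marker of the primed epiblast, had a count of 0 in all 6 libraries, and 3 counts would have been 1.16 to 1.61 CPM. Fgf2, the FGF used to culture primed cells, had 0 counts in the 3 pre3 libraries. In the siTet1, control siRNA and untransfected libraries of pre2-2 it had 4, 1 and 1 counts. Fgf2 overlaps Nudt6, with 7.83% of its 50-base stretches shared, so even these few counts are uncertain. Fgfr1 was the most abundant receptor, with a mean of 95.5 TPM, and Erbb2, the co-receptor of the EGF receptor family, was next with 22.3 TPM. The other FGF receptors were far less abundant. Fgfr3 averaged 5.25 TPM, Fgfr2 0.802 TPM and Fgfr4 0.323 TPM. Fgfr2 had 0, 4 and 0 counts in the siTet1, control siRNA and untransfected libraries of pre3, against 7, 10 and 3 counts in pre2-2. Fgfr4 had 1, 0 and 0 counts in pre3, against 4, 1 and 0 counts in pre2-2.

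The adaptors and core kinases formed a compact group, with mean levels of 8.46 TPM for the kinase gene Braf to 105 TPM for Mapk3, which encodes ERK1. Map2k1 and Map2k2, which encode the MEK kinases that phosphorylate ERK, averaged 91.8 and 85.7 TPM. Among the feedback inhibitors Dusp1 was highest, with a mean of 103 TPM, followed by Dusp4 with 97.5 TPM, and Spry1 was lowest with 4.11 TPM. Fos, with 405 TPM, and Etv5, an ETS factor induced by FGF signals, with 274 TPM, led the early response group, and Fosl1 was lowest in it with 20.6 TPM. Levels of ligands and receptors thus spanned a wider range than those of the core kinases. Of the 47 genes, 43 passed the filter on low counts and were tested, and Fgf2, Fgf5, Fgfr2 and Fgfr4 did not pass. The filter asked for 5.04 CPM, before TMM scaling, in 2 libraries. Fgf7 and Fgf10 reached it in no pre3 library and Fosl1 in 1, so these 3 passed through pre2-2, where they were high. Between lines they are described by their values. The counts of calls include them, but their calls are not a test of the lines.

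**Figure D1:**
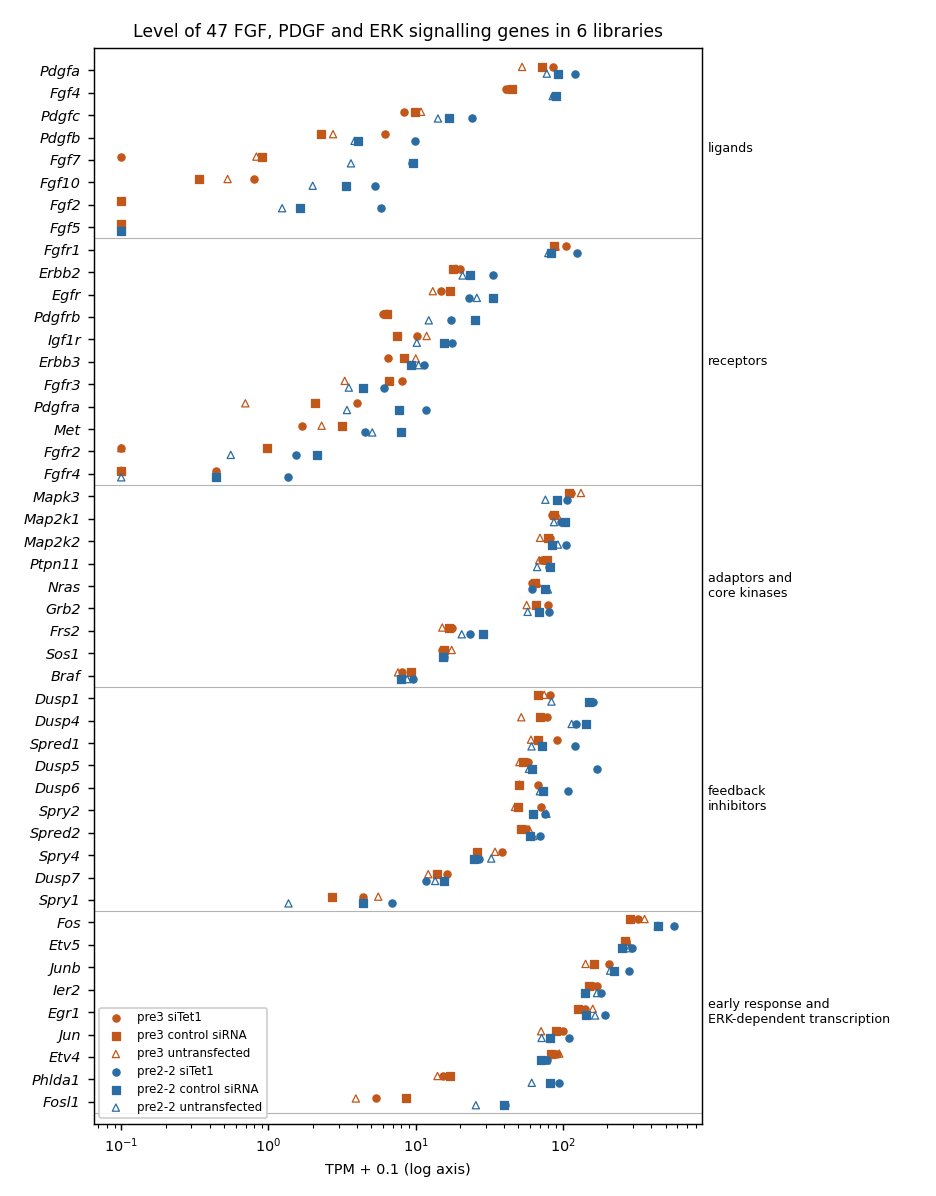
TPM plus 0.1 on a log axis for the 47 genes, grouped by role and ordered by mean, in the 6 libraries (circle, siTet1; square, control siRNA; triangle, untransfected; orange, pre3; blue, pre2-2). Core kinases sit close together, while Fgf7, Fgf10, Fosl1 and Phlda1 split by line, and Fgf5 lies at 0 everywhere.

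The comparison between lines called the most genes. In pre3, 18 genes were lower and 2 were higher than in pre2-2, out of 43 tested (adjusted p under 0.05, edgeR with the treatment in the model). Over all 11048 genes tested, 15.8% were lower in pre3 and 14.4% higher, 30.2% in all. The median log2 fold change of the 43 genes was -0.30, against 0.00 for all genes. In 16 of the 43 genes (37.2%) every pre3 library lay below every pre2-2 library, as did 18.2% of all genes tested. The reverse held for 2 (4.65%, against 18.8% of all genes). The 18 include Fgf7, Fgf10 and Fosl1, which could not have passed the filter without their pre2-2 libraries. No set test was made, so these counts describe the set and do not set it apart from others.

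Of the 6 ligands tested, 4 were lower in pre3. Fgf7, a mesenchymal growth factor for epithelia also called keratinocyte growth factor, had 0, 1.06 and 1.02 CPM in the siTet1, control siRNA and untransfected libraries of pre3, against 11.7, 12.1 and 4.64 CPM in those of pre2-2. The fitted log2 fold change between lines was -3.62 (SE 0.63), on 4 counts in all of pre3. Fgf10, a mesenchymal ligand of the same FGFR2 isoform, had 1.59, 0.531 and 1.02 CPM in pre3, against 11.2, 7.05 and 4.25 CPM in pre2-2, with a fitted log2 fold change of -2.75 (SE 0.58). For both genes, all pre3 libraries were near the level of 3 counts and below all pre2-2 libraries. Fgf4 had 62, 67.4 and 67.9 CPM in pre3, against 125, 129 and 127 CPM in pre2-2. The libraries of a line barely differed, and the log2 fold change of -0.95 (SE 0.12, adjusted p = 7.41e-07) corresponds to 0.518 times the pre2-2 level. Pdgfc, a ligand of the PDGF alpha receptor, had 14.3, 17 and 19.9 CPM in pre3, against 39.6, 27.7 and 24.4 CPM in pre2-2 (log2 fold change -0.82, SE 0.22, adjusted p = 0.00544). That call was lost without either siTet1 library, with a log2 fold change of -0.49. Pdgfa and Pdgfb were not called, with log2 fold changes of -0.40 (adjusted p = 0.0559) and -0.58 (adjusted p = 0.268).

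Both PDGF receptor genes were lower in pre3, while no difference was called for Fgfr1. Pdgfra, which encodes the alpha receptor of PDGF, had 12.7, 6.37 and 2.04 CPM in the siTet1, control siRNA and untransfected libraries of pre3, against 35.9, 23.7 and 10.8 CPM in pre2-2. The order of the treatments was the same in both lines, and the highest pre3 library overlapped the lowest of pre2-2 (log2 fold change -1.76, SE 0.27, adjusted p = 1.53e-05). Pdgfrb, the beta receptor, had 15.9, 17 and 17.9 CPM in pre3, against 44.3, 64.5 and 32.5 CPM in pre2-2 (log2 fold change -1.44, SE 0.20, adjusted p = 3.75e-06). Fgfr1, in contrast, had 264, 215 and 233 CPM in pre3, against 294, 195 and 193 CPM in pre2-2. Those ranges overlap, and no difference was called (log2 fold change 0.08, SE 0.10, adjusted p = 0.6). Met, the receptor of hepatocyte growth factor, had 5.3, 10.1 and 7.66 CPM in pre3, against 14, 24.7 and 16.2 CPM in pre2-2 (log2 fold change -1.24, SE 0.27, adjusted p = 0.001). Egfr, the EGF receptor, had 41.8, 50.4 and 40.9 CPM in pre3, against 62, 90.2 and 75 CPM in pre2-2 (log2 fold change -0.77, SE 0.14, adjusted p = 0.00012). For both, no pre3 library reached the lowest pre2-2 library. Igf1r, the IGF1 receptor, had 59.8, 44 and 74 CPM in pre3, against 98.4, 88.7 and 59.6 CPM in pre2-2. It was only just called (log2 fold change -0.45, SE 0.17, adjusted p = 0.0471), with values of -0.20 and -0.18 without the control siRNA library of pre2-2 or of pre3, -0.31 without either siTet1 library and -0.84 without either untransfected library. Erbb2 had 49.2, 44 and 49 CPM in pre3, against 78.3, 54.9 and 51.1 CPM in pre2-2, and was not called (log2 fold change -0.36, SE 0.15, adjusted p = 0.0722). Erbb3 and Fgfr3 were not called either, with log2 fold changes of -0.25 and 0.40.

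The middle of the cascade hardly differed between lines: 7 of 9 adaptors and core kinases were not called, and their log2 fold changes lay between -0.20 for Map2k2 and 0.13 for Sos1. Map2k1 had 101, 102 and 115 CPM in the siTet1, control siRNA and untransfected libraries of pre3, against 108, 117 and 102 CPM in pre2-2, so the lines overlapped. Mapk3 had 99.6, 96 and 124 CPM in the siTet1, control siRNA and untransfected libraries of pre3, against 89.1, 76.6 and 66.1 CPM in pre2-2 (log2 fold change 0.47, SE 0.13, adjusted p = 0.00878). Frs2, the docking protein of FGF receptors, had 49.2, 47.2 and 44.9 CPM in pre3, against 62.5, 77.6 and 57.2 CPM in pre2-2 (log2 fold change -0.47, SE 0.14, adjusted p = 0.0128). Neither gene overlapped between lines, but both calls hung on single libraries. Mapk3 fell short without either untransfected library (log2 fold change 0.25), and Frs2 without the control siRNA library of pre3 (-0.33) or of pre2-2 (-0.35).

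Among the 10 brakes of the set, 4 phosphatase genes were lower in pre3, and none of its 5 Sprouty and Spred genes was called between lines. Dusp4, a nuclear phosphatase of ERK, had 94.3, 84.4 and 66.4 CPM in pre3, against 141, 167 and 137 CPM in pre2-2 (log2 fold change -0.87, SE 0.12, adjusted p = 3.74e-06). Dusp1, an immediate early phosphatase, had 78.9, 64.7 and 76.1 CPM in pre3, against 146, 139 and 79.7 CPM in pre2-2 (log2 fold change -0.69, SE 0.15, adjusted p = 0.000709). For Dusp1, both transfected pre2-2 libraries stood well above the untransfected one. Dusp6, the cytoplasmic ERK phosphatase, had 93.7, 69.5 and 74.6 CPM in pre3, against 142, 97.7 and 95.9 CPM in pre2-2 (log2 fold change -0.49, SE 0.12, adjusted p = 0.00253), a call lost with DESeq2 (adjusted p = 0.0603) and with the line as the only term (0.0736). Dusp5, a nuclear ERK phosphatase, had 33.4, 30.8 and 30.6 CPM in pre3, against 92.8, 33.8 and 33.3 CPM in pre2-2. The siTet1 library of pre2-2 stood apart from the other 5. The log2 fold change was -0.66 (SE 0.20, adjusted p = 0.016), and it was -0.13 without the siTet1 library of either line. Those 5 genes had log2 fold changes of -0.30 for Spry2 to 0.30 for Spry4. Spred3, from the wider list described last, was lower in pre3 (-0.66, SE 0.19, adjusted p = 0.011). Spry1, the least abundant of them, varied most, with 5.3, 3.18 and 7.15 CPM in pre3, against 7.93, 5.04 and 1.55 CPM in pre2-2.

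Among early response genes, 4 were lower and 1 was higher in pre3. Fosl1, which encodes the AP-1 subunit FRA1, had 4.24, 6.9 and 3.57 CPM in pre3, against 32.6, 32.2 and 21.3 CPM in pre2-2 (fitted log2 fold change -2.54, SE 0.27). Fosl1 shares 58.9% of its 50-base stretches with the overlapping gene Ccdc85b. Summed with it, the pair had 35.5, 26 and 18.9 CPM in pre3, against 61.5, 59.5 and 49.5 CPM in pre2-2, and the log2 fold change shrank to -1.10 (adjusted p = 1.26e-05, an alternative added after the data were seen). Phlda1, a gene induced by growth factors, had 14.8, 16.4 and 14.3 CPM in pre3, against 86.7, 75.6 and 58.8 CPM in pre2-2 (log2 fold change -2.26, SE 0.17, adjusted p = 1.71e-10). Its lowest pre2-2 library was several times its highest pre3 library. Fos had 337, 295 and 395 CPM in pre3, against 564, 441 and 454 CPM in pre2-2 (log2 fold change -0.51, SE 0.10, adjusted p = 0.000286). Junb had 184, 146 and 135 CPM in pre3, against 241, 190 and 186 CPM in pre2-2 (log2 fold change -0.41, SE 0.10, adjusted p = 0.00324), a call lost without the control siRNA library of pre3 (-0.40, adjusted p = 0.0643). Both are AP-1 subunits, and neither overlapped between lines. Etv4 ran the other way, with 106, 96 and 116 CPM in pre3, against 85.3, 78.6 and 89 CPM in pre2-2 (log2 fold change 0.33, SE 0.12, adjusted p = 0.0319), and lost its call whichever library was left out (0.31 to 0.37). Etv5, with 509, 503 and 553 CPM in pre3, against 535, 454 and 532 CPM in pre2-2, was not called, nor were Egr1, Jun and Ier2.

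**Figure D2:**
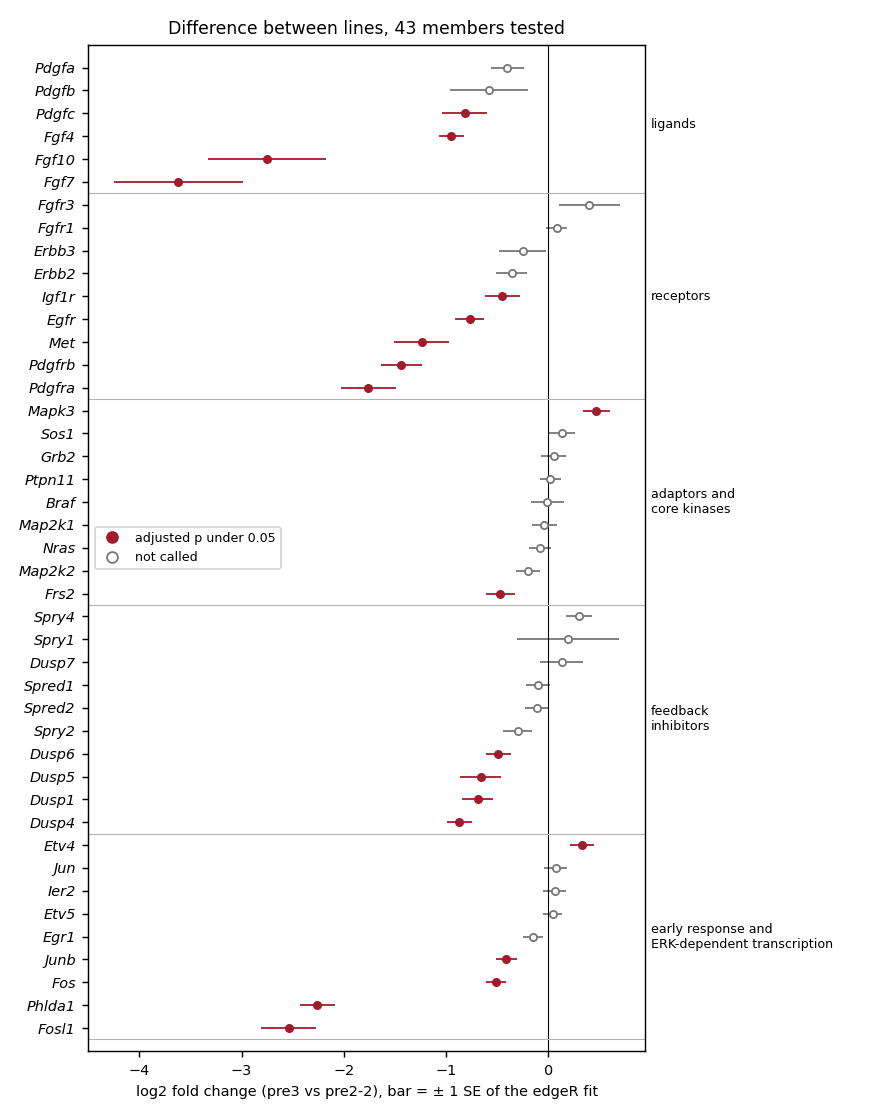
Log2 fold change of pre3 over pre2-2 (horizontal axis) for the 43 genes tested, grouped by role, with 1 standard error of the edgeR fit on each side. Filled points had an adjusted p under 0.05. Of these, 18 lie left of 0 and 2, Mapk3 and Etv4, right of it. The 18 include Fgf7, Fgf10 and Fosl1, which passed the filter through pre2-2.

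**Figure D3:**
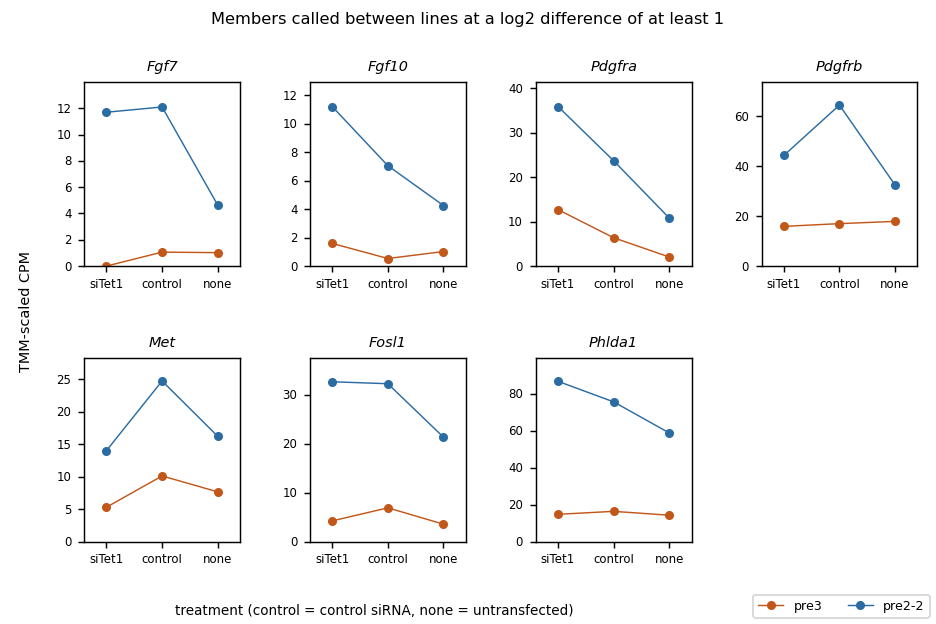
TMM-scaled CPM by treatment for the 7 genes called between lines at an absolute log2 fold change of at least 1, with pre3 in orange and pre2-2 in blue and 1 library per point; lines join the libraries of a cell line. Within each treatment pre3 lies below pre2-2 for all 7. The 7 include Fgf7, Fgf10 and Fosl1, which passed the filter through pre2-2, where they were high.

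Of these 20 calls, 12 held in every alternative fit other than the requirement of an absolute log2 fold change of at least 1, which only 7 genes met. With DESeq2, 13 of the 20 passed, and Pdgfc, Igf1r, Frs2, Mapk3, Dusp5, Dusp6 and Etv4 did not. Fgf7, Fgf10 and Fosl1 are counted in the 20, the 12, the 7 and the 13. They passed the filter through pre2-2, so their calls add no support. Several of the 18 genes are known from fibroblasts and other mesenchymal cells. Summed fibroblast markers moved with the line, as given above, and 9 of the 10 tested were lower in pre3. Summed endothelial markers were 34.2 to 39.2 CPM in pre3, against 91.2 to 115 CPM in pre2-2, and 4 of 5 tested were lower in pre3. Among those called lower, Kdr and Tie1 reached 5.04 CPM in no pre3 library. Pecam1 reached it only in the untransfected library of pre3. The fibroblast marker Twist1 did so only in the siTet1 library of pre3. These genes passed the filter through pre2-2, where they were high, so their calls add no support. The part of other cell types in these differences was not tested.

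The second question was what siTet1 did to the pathway against the control siRNA. In the fit over all 6 libraries 1 of 43 genes passed, the feedback inhibitor Spred1, which was higher (1.58% of all genes were called, 1.15% as higher). Spred1 encodes a membrane protein that blocks RAS activation of RAF. It had 136, 101 and 95.5 CPM in the siTet1, control siRNA and untransfected libraries of pre3, and 172, 102 and 90.1 CPM in those of pre2-2. The siTet1 library was the highest of its line in both lines, and the 2 siTet1 values lay above all 4 others. The log2 fold change of siTet1 over control siRNA was 0.60 (SE 0.14, adjusted p = 0.0285, edgeR), or 1.51 times the control level. The call did not hold with DESeq2 (adjusted p = 0.702), with limma (0.0512), without the siTet1 library of pre2-2 (log2 fold change 0.41), or without the control siRNA library of pre2-2 (0.53) or of pre3 (0.63).

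The number of genes that passed differed between fits. With the line as a block and only the 4 siTet1 and control siRNA libraries, 8 genes passed, all higher with siTet1, while 5.65% of all genes tested in that fit passed. They were the ligand gene Pdgfb (log2 fold change 1.35, adjusted p = 0.0359), the receptor gene Fgfr1 (0.44, adjusted p = 0.000116), the brakes Spred1 (0.59), Dusp5 (0.93) and Dusp6 (0.49), and the early response genes Fos (0.28), Egr1 (0.30) and Junb (0.33). Adjusted p-values of the last 6 were 1.98e-05 to 0.0331. In the fit over 6 libraries 7 of these 8 were not called, though their log2 fold changes were nearly the same. For the fits with a library left out, the share of all genes called is not given. Their counts thus describe the set alone. Leaving out only the untransfected library of pre3 or of pre2-2 gave 8 and 7 genes, leaving out the siTet1 library of pre3 gave 2, and leaving out the siTet1 or the control siRNA library of pre2-2 gave 0.

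The values of these genes show what lies behind the count. Pdgfb, the B chain of PDGF, had 9, 3.18 and 4.09 CPM in the siTet1, control siRNA and untransfected libraries of pre3, and 13.5, 5.54 and 5.42 CPM in pre2-2. In counts, these are 16.9, 6 and 8 in pre3 and 29, 11 and 14 in pre2-2. Both siTet1 libraries stood above the other 4, but at few reads, and only 1 control siRNA library reached the level of the filter (log2 fold change over control siRNA 1.36, SE 0.46, adjusted p = 0.178). Fgfr1, given above, was likewise highest with siTet1 in each line (log2 fold change 0.45, SE 0.13, adjusted p = 0.0799). Dusp5 had nearly 3 times as much RNA in the siTet1 library of pre2-2 as in any other, and in pre3 all 3 treatments were alike (log2 fold change 0.92, SE 0.25, adjusted p = 0.0581). Dusp6 was higher with siTet1 in each line (log2 fold change 0.49, SE 0.14, adjusted p = 0.0986). Egr1, a zinc finger early response gene, had 214, 193 and 258 CPM in pre3 and 280, 209 and 250 CPM in pre2-2. In pre3 the untransfected library was above the siTet1 library, so Egr1 did not separate siTet1 from both kinds of control. Fos showed the same order in pre3.

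By role, the siTet1 over control siRNA medians were 0.28 for ligands, 0.26 for receptors, -0.01 for adaptors and core kinases, 0.37 for feedback inhibitors and 0.26 for early response genes, against 0.00 for all genes. Of the 43 genes, 26 (60.5%) were higher with siTet1 in both lines, against 29.4% of all genes tested, and 8 (18.6%) were lower in both, against 30.6%. Among the 10 brakes, siTet1 exceeded control siRNA in 10 in pre3 and in 8 in pre2-2, Dusp4 and Dusp7 being the exceptions. Among the 9 early response genes it did so in 7 in pre3 and in 9 in pre2-2. Over all 11048 genes tested, the same held for 5355 in pre3 and 5558 in pre2-2. These are counts of unadjusted differences between single libraries. Some receptors had negative values that did not pass the test. Met, at a log2 fold change of -0.85 (adjusted p = 0.285), Egfr, at -0.43 (adjusted p = 0.311), and Pdgfrb, at -0.40 (adjusted p = 0.563), had lower CPM with siTet1 in both lines. The kinase module stayed within -0.18 for Nras and 0.25 for Grb2, with 0 of 9 genes at an unadjusted p under 0.05. The whole set had 13 of 43 there and all genes 1195 of 11048.

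**Figure D4:**
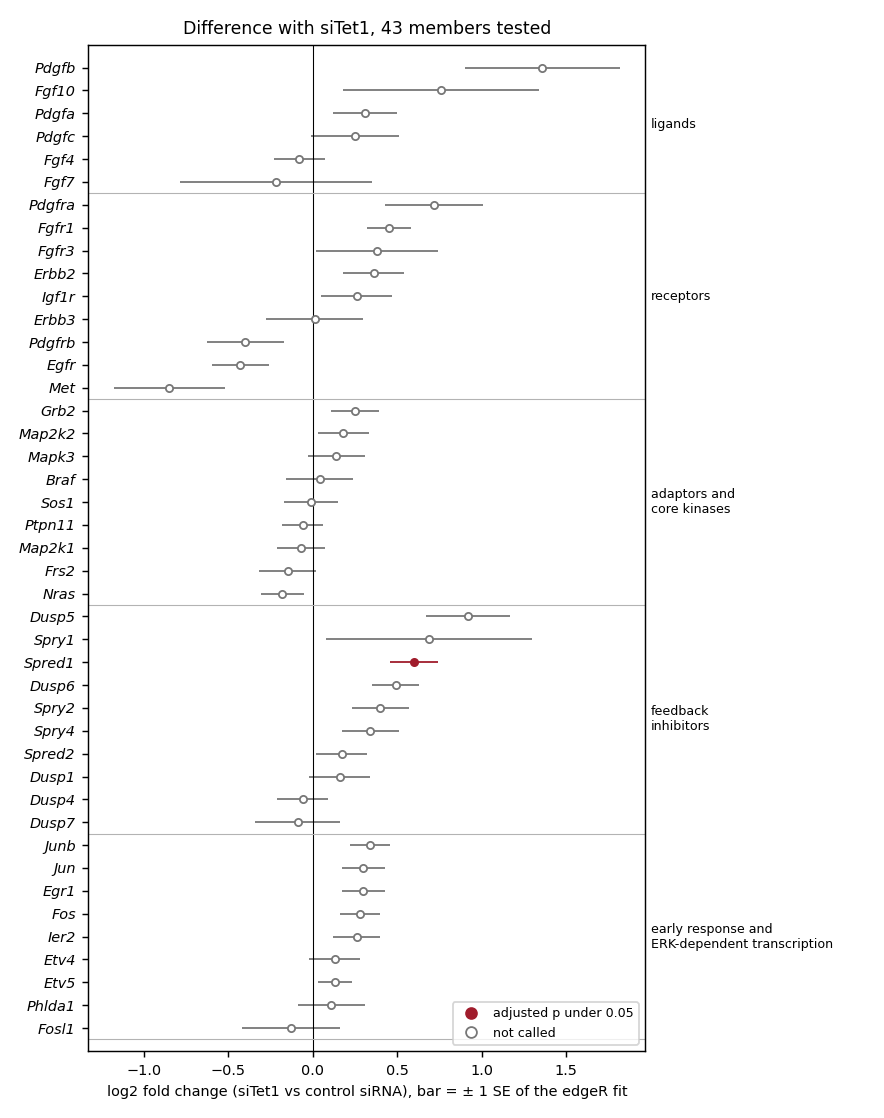
Log2 fold change of siTet1 over control siRNA (horizontal axis) for the 43 genes tested in the fit over 6 libraries, grouped by role, with 1 standard error on each side. Spred1 alone is filled (adjusted p under 0.05). Right of 0 lie 8 of 10 feedback inhibitors and 8 of 9 early response genes, against 5597 of all 11048 genes tested.

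Transfection itself brings foreign RNA into the cell. Summed over 12 genes of the interferon response to transfected RNA, the siTet1, control siRNA and untransfected libraries had 143, 244 and 77.1 CPM in pre3, and 301, 864 and 148 CPM in pre2-2. Of the 10 tested, 10 were higher with control siRNA than untransfected (adjusted p under 0.05, edgeR), against 1.38% of all genes. Of these, Irf7, Isg15, Oasl2, Ifit1, Usp18, Rsad2 and Ifih1 reached 5.04 CPM in no untransfected library. They passed the filter through transfected libraries, where they were high, so these calls add no support. With siTet1, 8 of the 10 had less RNA than with control siRNA (adjusted p under 0.05, edgeR), against 0.434% of all genes. The 2 siRNAs therefore differed in this response as well as in their target, and its part in the differences of the FGF, PDGF and ERK genes was not tested.

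Control siRNA against untransfected cells, a comparison that shows transfection without the Tet1 target, called 0 of 43 genes by edgeR, with 6 at an unadjusted p under 0.05 (1017 of all 11048 genes), and 0 by DESeq2 and by limma. In all, 1.48% of genes were called, 1.38% as higher. The medians were 0.03 for the 43 genes and 0.00 for all genes. Pdgfra was nearest to a call (log2 fold change 1.20, SE 0.35, adjusted p = 0.101). Egr1 (-0.34, adjusted p = 0.286) and Spry4 (-0.47, adjusted p = 0.25) had lower CPM with control siRNA in both lines, and Dusp4 (0.30, adjusted p = 0.541) had higher CPM in both, without passing the test. Without an untransfected library, pre3's or pre2-2's, 3 and 2 genes were called, and without the siTet1 library of pre3 there was 1.

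Against untransfected cells, siTet1 cells had 6 of 43 genes higher and 0 lower (6.55% of all genes were called, 4.92% as higher and 1.63% as lower). This comparison shares its siTet1 libraries with that against control siRNA and its untransfected libraries with the last one. The 6 were the receptor gene Pdgfra, the brakes Spred1, Dusp5 and Dusp6, and the AP-1 genes Jun and Junb. Pdgfra, with the CPM values given above, was lowest in the untransfected, intermediate in the control siRNA and highest in the siTet1 library of each line. Its log2 fold change over untransfected was 1.92 (SE 0.32, adjusted p = 0.000483), and the call held with every library left out in turn (1.75 to 2.50), with DESeq2 (2.04) and with limma (1.91). The pre3 untransfected library held 4.02 Pdgfra counts. The summed fibroblast markers were 1161, 1017 and 833 CPM in pre3 and 3340, 3904 and 1618 CPM in pre2-2, lowest in the untransfected library of each line but highest with control siRNA in pre2-2, and 7 of 10 tested were higher with siTet1 than untransfected. Their part in the Pdgfra difference was not tested.

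Spred1 was 1.66 times its untransfected level (log2 fold change 0.73, SE 0.14, adjusted p = 0.00191), a call lost with DESeq2 and without the siTet1 library of pre2-2 (0.54). Dusp5 was called at a log2 fold change of 0.95 (SE 0.24, adjusted p = 0.0158), which was 0.13 without the siTet1 library of pre2-2, 0.49 without the untransfected library of that line and 1.47 without the siTet1 library of pre3. Jun, an AP-1 subunit, had 160, 142 and 119 CPM in the siTet1, control siRNA and untransfected libraries of pre3, and 166, 123 and 112 CPM in pre2-2. It stepped down in that order in both lines, and its log2 fold change over untransfected was 0.50 (SE 0.13, adjusted p = 0.0212). The call was lost without the siTet1 library of either line (0.58 for pre3, 0.40 for pre2-2) and without the control siRNA library of pre3 (0.48). Dusp6 (log2 fold change 0.46, SE 0.14, adjusted p = 0.0495) and Junb (0.40, SE 0.12, adjusted p = 0.0475) only just passed, and each kept its call in 1 of 6 fits with a library left out, that without the untransfected library of pre3. Over those 6 fits the number of genes called ran between 1, without the siTet1 library of pre2-2, and 13, without the untransfected library of pre3; it was 3 without the control siRNA library of pre3 or the untransfected library of pre2-2. Without the line as a block, no gene of the set was called.

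The 250 bases before the start of each of these 6 genes are shown because each was called higher with siTet1 than in untransfected cells. Against control siRNA only Spred1 was called in the fit over 6 libraries. They are RefSeq sequences of build GRCm38.p6, whereas the counts were made on mm9, and each reads 5′ to 3′ towards the gene. Capitals mark every match, on either strand, to any of 6 motifs searched, which in these sequences were Sp1 or CArG, the serum response factor element.
Pdgfra, chr5:75152001-75152250, plus strand: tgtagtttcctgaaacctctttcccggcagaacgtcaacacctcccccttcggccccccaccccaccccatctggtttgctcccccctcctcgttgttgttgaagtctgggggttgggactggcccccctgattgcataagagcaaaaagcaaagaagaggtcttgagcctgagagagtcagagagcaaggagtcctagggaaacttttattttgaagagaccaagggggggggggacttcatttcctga
Spred1, chr2:117120821-117121070, plus strand: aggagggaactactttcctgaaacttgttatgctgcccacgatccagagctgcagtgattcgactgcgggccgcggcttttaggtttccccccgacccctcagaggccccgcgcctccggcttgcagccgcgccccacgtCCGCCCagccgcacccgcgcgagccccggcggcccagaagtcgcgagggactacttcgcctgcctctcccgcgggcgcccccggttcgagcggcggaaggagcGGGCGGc
Dusp5, chr19:53528895-53529144, plus strand: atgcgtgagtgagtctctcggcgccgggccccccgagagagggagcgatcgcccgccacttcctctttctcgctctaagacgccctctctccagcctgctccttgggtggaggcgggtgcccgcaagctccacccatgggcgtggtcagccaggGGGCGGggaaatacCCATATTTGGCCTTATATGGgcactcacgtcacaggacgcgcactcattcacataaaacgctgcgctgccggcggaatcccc
Dusp6, chr10:99262981-99263230, plus strand: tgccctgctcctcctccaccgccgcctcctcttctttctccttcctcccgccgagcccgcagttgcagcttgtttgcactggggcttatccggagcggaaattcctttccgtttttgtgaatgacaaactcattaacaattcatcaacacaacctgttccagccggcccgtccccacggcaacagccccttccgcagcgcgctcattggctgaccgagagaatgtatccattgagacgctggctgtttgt
Jun, chr4:95052223-95052472, minus strand: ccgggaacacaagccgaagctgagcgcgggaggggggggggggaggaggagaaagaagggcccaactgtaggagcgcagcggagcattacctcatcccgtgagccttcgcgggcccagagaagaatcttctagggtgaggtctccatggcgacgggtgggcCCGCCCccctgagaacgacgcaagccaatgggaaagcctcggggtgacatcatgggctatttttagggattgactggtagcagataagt
Junb, chr8:84978749-84978998, minus strand: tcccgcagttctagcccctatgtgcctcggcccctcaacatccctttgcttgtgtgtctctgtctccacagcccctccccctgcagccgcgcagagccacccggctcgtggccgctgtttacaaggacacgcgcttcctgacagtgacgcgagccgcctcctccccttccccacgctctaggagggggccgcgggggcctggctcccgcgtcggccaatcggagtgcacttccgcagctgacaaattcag

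Each motif was searched on both strands, and its share was taken over 32851 promoters of the same length. The AP-1 letters TGANTCA stood in 6.75% of these promoters. The cyclic AMP response element TGACGTCA stood in 1.55%. The ETS core CCGGAA stood in 12% and the Sp1 box GGGCGG in 32.7%. The TATA box, searched as TATAAA, stood in 12.4%, and a CArG element in 1.47%. Dusp5 held 2 adjoining CArG matches, at 82 and 72 bases before its start, and an Sp1 match at 96. Spred1 held Sp1 matches at 110 and 7 bases and Jun held 1 at 89 bases. Pdgfra, Dusp6 and Junb held none of the 6. The GC content was 54.4% for Pdgfra, 70.8% for Spred1, 64% for Dusp5, 56.4% for Dusp6, 61.2% for Jun and 66.4% for Junb, against a median of 52.4% over all promoters. A match is a description of letters and not a site.

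In 15 of the 43 genes (34.9%) the siTet1 library was the highest of its line in both lines, against 17.8% of all genes tested, and in 3, Fgf4, Met and Nras, it was the lowest in both (6.98%, against 16.7%). The 15 span every role: the ligand genes Fgf10, Pdgfa and Pdgfb, the receptor genes Fgfr1, Fgfr3, Pdgfra and Erbb2, the cascade genes Grb2 and Map2k2, the brakes Spred1, Dusp1, Dusp5 and Dusp6, and the AP-1 genes Jun and Junb. For Pdgfa, with 42.9, 36.1 and 28.1 CPM in the siTet1, control siRNA and untransfected libraries of pre3 and 57.3, 44.8 and 38.7 CPM in pre2-2, the log2 fold change of siTet1 over untransfected was 0.58 (SE 0.19, adjusted p = 0.0644). The adaptor gene Grb2 had the same order, with 103, 85.4 and 77.6 CPM in pre3 and 99.3, 84.6 and 73.9 CPM in pre2-2 (log2 fold change over untransfected 0.42, SE 0.14, adjusted p = 0.0842). Neither passed.

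**Figure D5:**
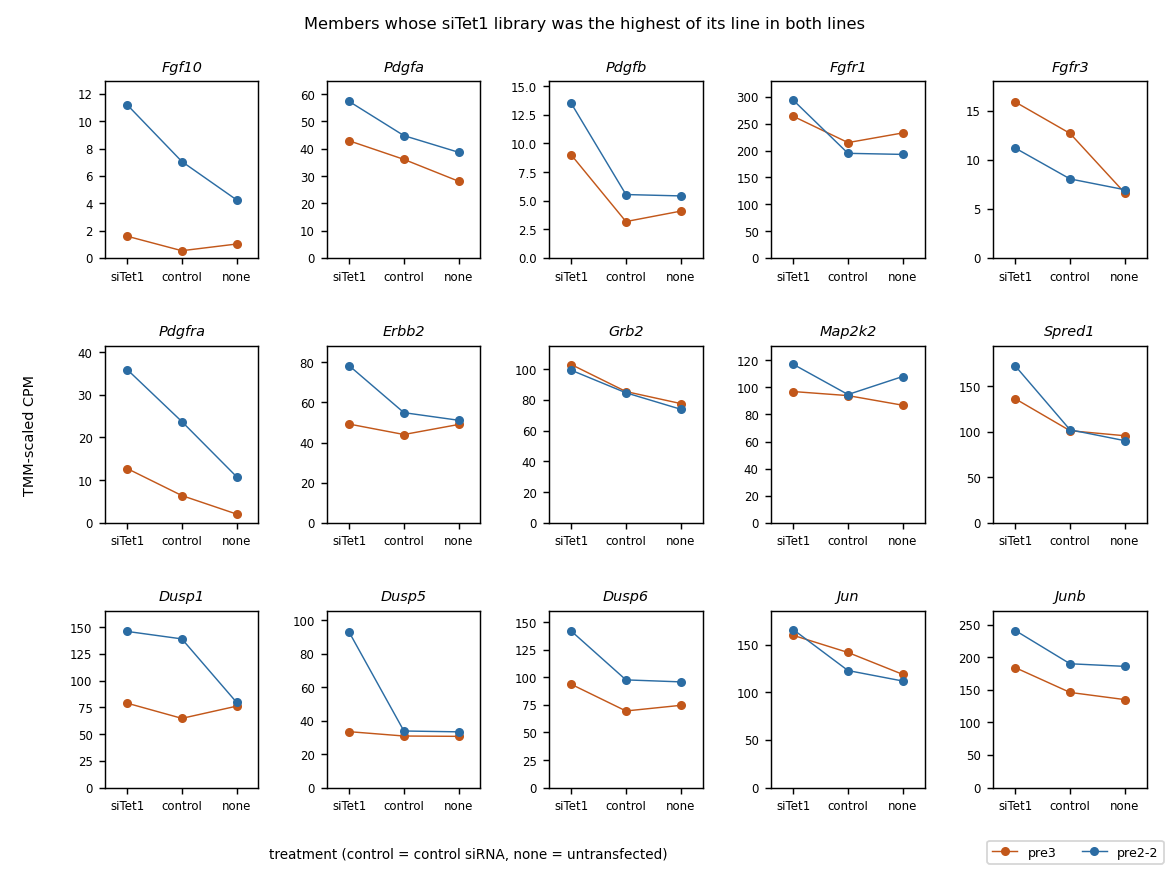
TMM-scaled CPM by treatment for the 15 genes whose siTet1 library was the highest of its line in both lines, chosen by that order, with pre3 in orange and pre2-2 in blue and 1 library per point. Dusp5 is high in the siTet1 library of pre2-2 alone, whereas Pdgfra, Pdgfa, Grb2 and Jun step down through control siRNA to untransfected in both lines.

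Whether the lines differed in their response was tested as an interaction. With 1 library per line and treatment, libraries of different treatments stood in as replicates of a line. These were control siRNA and untransfected for siTet1, and siTet1 and control siRNA for transfection. Differences between those treatments entered the spread, so a count of 0 does not show that the lines responded alike. For siTet1 against both controls, 0 of 43 genes were called by edgeR, DESeq2 or limma, with 2 at an unadjusted p under 0.05 by edgeR (270 of all 11048 genes), and 0% of all genes were called. The 2 were Dusp5 (interaction log2 fold change -1.35, SE 0.31, unadjusted p = 0.00108, adjusted p = 1) and Pdgfc (-0.98, SE 0.43, unadjusted p = 0.042, adjusted p = 1). Dusp5 differed less in pre3, and for Pdgfc the siTet1 library was the lowest of its line in pre3 and the highest in pre2-2. For transfection, 0 of 43 were called by any of the 3 tools, with 4 at an unadjusted p under 0.05 by edgeR (603 of all 11048 genes), and 0.00905% of all genes were called. Those 4 were Igf1r (-1.16), Mapk3 (-0.66), Spry1 (-2.78) and Dusp1 (-0.92), all with adjusted p-values of 0.872 to 0.884.

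A wider list of 108 genes of the same pathways, none of them among the 47, showed how far these patterns reached. Of these, 105 were measured and 76 tested, and 9 had 0 counts in all libraries, among them Fgf8, Fgf3 and Erbb4. Between lines 24 of the 76 were lower and 11 higher in pre3, against 15.8% and 14.4% of all genes. Of the 24, Ier5l reached 5.04 CPM in no pre3 library and Gab2 only in the siTet1 library of pre3, so both passed the filter through pre2-2. Csf1, a macrophage growth factor gene, had 26.5, 25.5 and 17.4 CPM in the siTet1, control siRNA and untransfected libraries of pre3, against 138, 205 and 78.5 CPM in pre2-2 (log2 fold change -2.56, SE 0.16, adjusted p = 2.73e-12). Plau, the urokinase gene, and Plaur, its receptor, were lower in pre3 too (-2.25 and -1.95), as were the chromatin protein gene Hmga2 (-1.58) and the phosphatase gene Dusp14 (-1.03). Myc was higher in pre3, with 1730, 1682 and 1856 CPM, against 976, 858 and 985 CPM in pre2-2 (log2 fold change 0.90, SE 0.07, adjusted p = 4.06e-10).

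With siTet1 against control siRNA, 1 of the 76 was lower and 0 were higher, against 0.434% and 1.15% of all genes. That gene was Ccnd1, the cyclin D1 gene and a classical target of ERK signalling, with 294, 390 and 339 CPM in pre3 and 420, 797 and 631 CPM in pre2-2 for siTet1, control siRNA and untransfected. The siTet1 library was the lowest of its line in both lines (log2 fold change over control siRNA -0.67, SE 0.12, adjusted p = 0.00165). Against untransfected cells, siTet1 cells had 12 of the 76 higher and 2 lower, against 4.92% and 1.63% of all genes. Among the higher were Plau (1.43, adjusted p = 0.00144), Hmga2 (0.67, adjusted p = 0.00127), Plaur (0.70, adjusted p = 0.00624), Csf1 (0.77, adjusted p = 0.0114), the docking protein gene Gab1 (0.91, adjusted p = 0.0101) and the AP-1 gene Fosl2 (0.72, adjusted p = 0.012). Control siRNA cells had 2 higher than untransfected cells, against 1.38% of all genes, namely Csf1 (1.18, adjusted p = 0.000261) and Plau (1.12, adjusted p = 0.0306).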

How the data were processed

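Each deposited file lists genes by symbol, with RSEM's expected count and the fraction of transcripts, both made by the authors with RSEM 1.1.21 on mm9, per the submitters' processing notes. The deposited fraction times 1000000 is TPM. Libraries were made with a TruSeq RNA kit after Trizol extraction, per the labels' protocols; read length and strand are not given in the sources used here. A whole-series TPM table was not used. After rounding, expected counts entered edgeR 4.0.16 under R 4.3.3 with TMM factors of 0.983 to 1.01. The filterByExpr step, grouped by treatment (minimum count 10), kept 11048 genes. Tests were the two-sided quasi-likelihood test and Benjamini-Hochberg adjustment over all genes tested. The model held line and treatment over 6 libraries (prior degrees of freedom 23.2, residual 2). DESeq2 1.42.0 and limma 3.58.1 (prior count 2) were alternatives. Replicate numbers are the lines, so same-numbered libraries share a line: log2 CPM correlated across genes at 0.953 to 0.975 within lines and 0.883 to 0.938 between them. An exact permutation test of 2 against 2 libraries cannot go below p = 0.333. CPM are TMM-scaled. Limits of 3 counts cover counting error only. The edgeR step was tested on simulated data. The genes and lists were chosen with earlier results of these data known. Values in every library are given for genes called in any comparison, the 2 highest of each role by TPM, and those varying at least 4 times between libraries; the wider list names the 6 genes with the lowest adjusted p per comparison.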

Additional observations from a re-analysis of the deposited data

How the results depend on the processing

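For siTet1 against control siRNA the fit over 6 libraries called 1 gene. It called 3 with library totals alone, 2 with no filter, 0 with DESeq2, 0 with limma, 0 with an absolute log2 fold change of at least 1, and 0 to 8 with a library left out. For the replicate block, treatment without the line called 0, and the block on the 4 libraries compared called 8. For control siRNA against untransfected 0 became 1 with no filter and 0 to 3 with a library left out. For siTet1 against untransfected 6 became 1 with DESeq2, 3 with limma, 1 at a log2 fold change of at least 1, 0 without the replicate block and 1 to 13 with a library left out. Between lines 20 became 13 with DESeq2, 7 at a log2 fold change of at least 1 and 16 to 21 with a library left out. Fits with fewer libraries called more genes in some cases and fewer in others, and the cause was not tested. The share of all genes called with a library left out is not given, so those counts do not set the genes apart from others. Of the alternative fold changes of called genes, 8 of 15 (siTet1 against control siRNA), 43 of 84 (siTet1 against untransfected) and 216 of 261 (between lines) kept direction and call, and 0 reversed. Interactions could not be fitted without a siTet1 library (siTet1) or an untransfected library (transfection). Depth limits Fgf2, Fgf5, Fgf7, Fgf10, Fgfr2 and Fgfr4, with few or no counts in pre3.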
